A study of Homo sapiens with 6 samples.

Results

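MGP encodes matrix Gla protein, a small secreted protein that keeps soft tissue from calcifying. Its row of the count table (ENSG00000111341) was examined together with that of C12orf60 (ENSG00000182993), a gene on the other strand with an exon that overlaps the first exon of MGP. These are 2 of the 57209 gene rows in each table. They were chosen from their counts in the comparison described here, so their differences between the groups are given as a description, without a test. The cells were of the human line MB157, an established triple-negative breast cancer line carrying Cas9 according to the sample titles, and the series' design text also calls the cells stably SOX9-expressing. In 3 libraries the cells had received an sgRNA against SOX9, which encodes a transcription factor of cartilage and of epithelial progenitors, and in 3 libraries a control sgRNA. Per that text, both groups were kept for 4 days and sorted for the upper 50% of sgRNA-expressing cells, so the SOX9 sgRNA group is a sorted pool and no clone is named. The labels call the replicates technical, and p-values here measure only the spread between these libraries.

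As background, matrix Gla protein becomes active when vitamin K-dependent carboxylation turns some of its glutamate residues into Gla residues, which bind calcium. It also binds bone morphogenetic proteins (BMPs) and dampens their signalling. Cartilage cells and vascular smooth muscle cells are its best known sources, mice without it calcify their arteries and cartilage, and the transcript is also found in breast epithelium and breast tumours. C12orf60 is an annotated protein-coding gene about which little is known.

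The overlap between the genes is short and lies near the 5′ end of MGP. On GRCh37, the build of the count tables, the MGP row (minus strand) spans chromosome 12, 15034115 to 15038860, and the C12orf60 row (plus strand) spans 14956506 to 15059520. MGP therefore sits within the span of C12orf60, in the other direction. Their exons share 76 bp, which is 2.88% of the 2639 bp of the MGP row and 1.66% of the 4570 bp of the C12orf60 row. Among the 6 joined exons of the C12orf60 row, the third, of 91 bp, is the one that holds the overlap. None of the other 5 lies within the span of any annotated minus-strand gene, introns included.

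**Figure D1:**
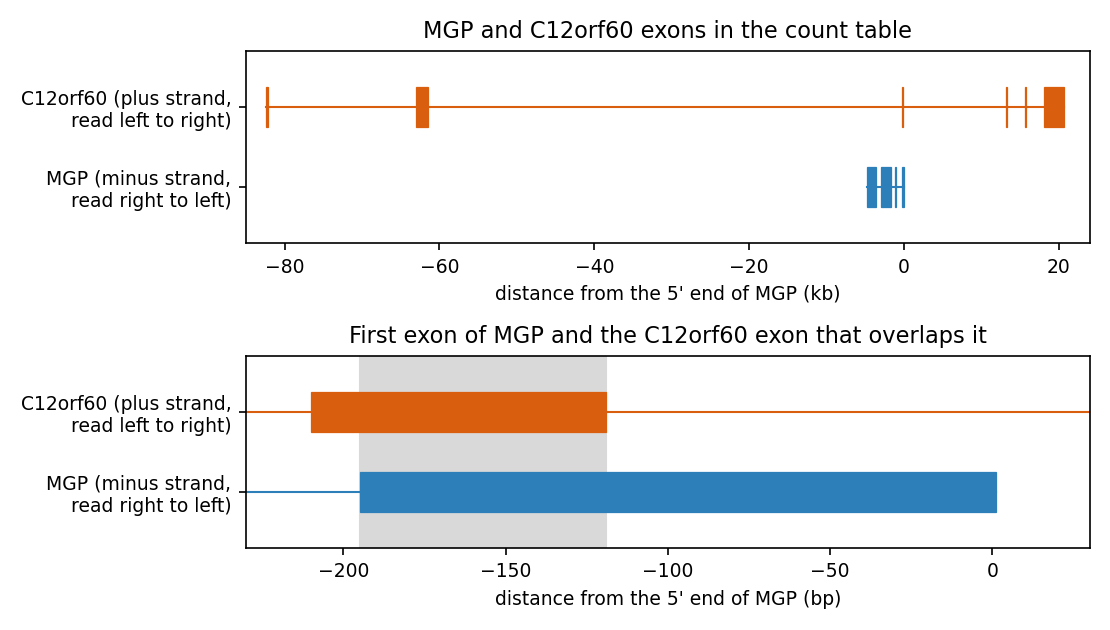
Exons of MGP and C12orf60 in the count tables, by distance from the 5′ end of MGP, in kb above and bp below. Boxes are exons and the grey band is the shared stretch of 76 bp, which falls in the first exon of MGP.

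GENCODE release 29, an annotation on GRCh38, shows which transcripts meet there. Of 5 C12orf60 transcripts, C12orf60-204 alone overlaps an MGP exon. It is a processed transcript of 746 bases with 2 exons and no coding bases. The protein-coding transcript, C12orf60-201, has 0 bases in common with MGP exons. The shared stretch is the end of the first exon of MGP-201, and it holds the start of the MGP reading frame. A fragment from this stretch is assigned to one row or the other by its strand alone.

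Counts in both rows were lower with the SOX9 sgRNA, and far more of them lay in the C12orf60 row than in the MGP row. The C12orf60 row held 17, 16 and 14 counts in SOX9 sgRNA libraries 1 to 3, against 139, 176 and 155 in control libraries 1 to 3. Every SOX9 sgRNA library was far below every control library; the groups were apart in this direction in 12.8% of all 7959 tested rows. Scaled to CPM, the count relative to the size of the library, with TMM factors, this was 18.3 ± 4.05 CPM with the SOX9 sgRNA and 211 ± 21.7 CPM with the control sgRNA (SD, n = 3 each). Counting error alone gives an SD of 4.62 CPM at the SOX9 sgRNA level and 16.8 CPM at the control level, close to the spread seen between the libraries. Summed over the libraries, 47 SOX9 sgRNA counts against 470 control counts give a scaled ratio of 0.0850 (exact 95% interval 0.0616 to 0.115, counting error only), which is 11.8-fold lower. The fitted log2 fold change, SOX9 sgRNA over control, was -3.38 (SE 0.22).

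The MGP row itself held 2, 3 and 2 counts in SOX9 sgRNA libraries 1 to 3, against 13, 8 and 8 in control libraries 1 to 3. These groups did not overlap either. In CPM this was 2.75 ± 1.02 with the SOX9 sgRNA and 13.01 ± 3.83 with the control sgRNA (SD, n = 3 each). The 7 SOX9 sgRNA counts against 29 control counts give a scaled ratio of 0.205 (exact 95% interval 0.0758 to 0.478), or 4.88-fold lower. The row did not pass the filter on low counts and so was not among the 7959 rows tested. Kept in the fit regardless, it gave a log2 fold change of -1.58 (SE 0.59), a value that depends on the prior count at such levels. Whether the fold differed between the MGP and C12orf60 rows was not tested.

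**Figure D2:**
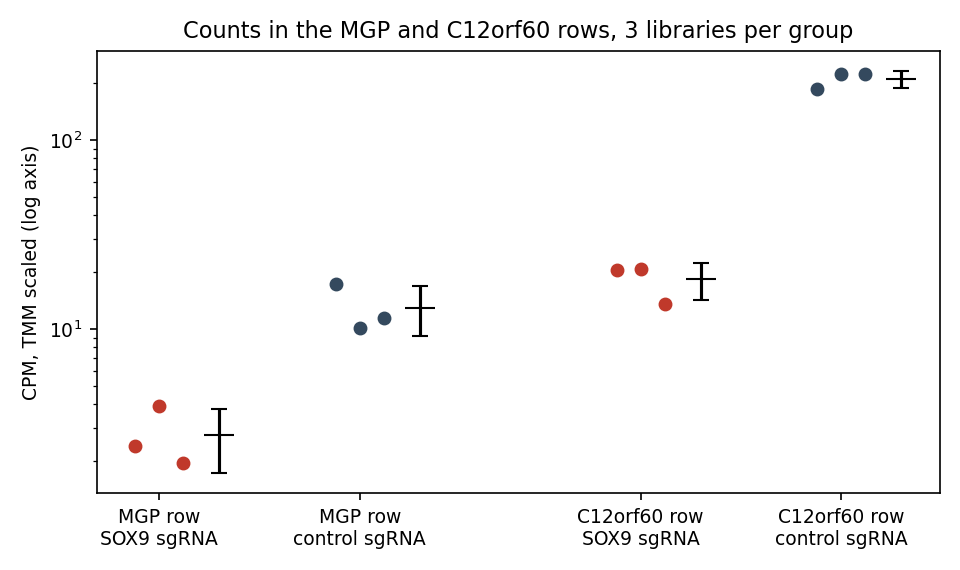
TMM-scaled CPM (log axis) of the MGP and C12orf60 rows; each point is a library, and the bars to the right of the points give the mean and SD (n = 3). SOX9 sgRNA libraries lie below all control libraries in both rows, and the C12orf60 row lies above the MGP row in each group.

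Against all rows of the table, 6 of the 7959 tested rows had a more negative log2 fold change than C12orf60. By mean CPM over all 57209 rows, C12orf60 ranked 6163 with the SOX9 sgRNA and 873 with the control sgRNA, and MGP ranked 15546 with the SOX9 sgRNA and 7472 with the control sgRNA. Lower calls made up 6.02% of tested rows and higher calls 2.99%, 9.01% in all, by edgeR's quasi-likelihood test at a Benjamini-Hochberg adjusted p under 0.05. C12orf60 is among the lower calls, but it was chosen from this contrast.

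**Figure D3:**
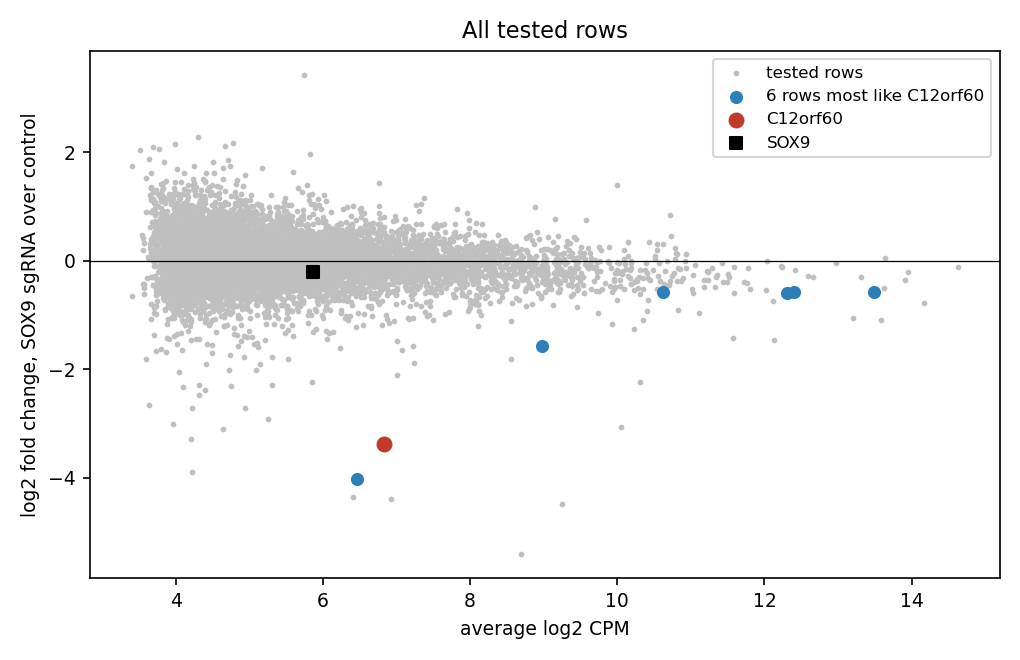
Log2 fold change (SOX9 sgRNA over control) against average log2 CPM for the 7959 tested rows. C12orf60 is red at -3.38, SOX9 is the black square at -0.21, and the 6 rows most like C12orf60 are blue.

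In all 6 libraries most counts of the pair lay in the C12orf60 row. The MGP row held 10.5%, 15.8% and 12.5% of the counts of the pair in SOX9 sgRNA libraries 1 to 3, and 8.55%, 4.35% and 4.91% in control libraries 1 to 3. Summed by group, the share was 12.96% (exact 95% binomial interval 5.37 to 24.9) with the SOX9 sgRNA and 5.81% (3.93 to 8.24) with the control sgRNA. Each SOX9 sgRNA library had a higher share than each control library. The shares rested on 16 to 19 counts per library with the SOX9 sgRNA and 152 to 184 with the control sgRNA, and their difference was not tested. Per kb of row length, the C12orf60 row held 10.3 counts with the SOX9 sgRNA and 103 with the control sgRNA, and the MGP row held 2.65 with the SOX9 sgRNA and 11.0 with the control sgRNA.

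Transcripts of MGP and of C12orf60 as sources of the C12orf60 counts cannot be told apart from counts per gene alone, since the tables give 1 number per row and no position within it. The library kit keeps the strand of the RNA, and per the file headers fragments were assigned with strand setting 1. As background, kits of this template-switching design place the first read of a pair on the strand complementary to the RNA, while setting 1 takes the first read as lying on the strand of the RNA.

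Pairs with a gene that is abundant in nearly every cell show how counts fell on the strands. Of 30 such reference genes, 9 overlapped exactly 1 gene on the other strand that itself overlapped no further one. In 5 of the 9 pairs the row on the other strand held more counts than the gene's own row. For FTH1, which encodes ferritin heavy chain, its own row held 2.35% of the counts of the pair, and BEST1 held the rest. TUBA1B, an alpha-tubulin gene, held 0.208% beside TUBA1B-AS1, and GAPDH, a glycolytic enzyme gene, held 1.06% beside ENSG00000269968. RPS23 held 0.145% and RPS3A 0.567%, both of them ribosomal protein genes. MGP, at 6.51% over all 6 libraries (exact 95% interval 4.60 to 8.90), was nearest to these.

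The other 4 reference pairs had the reverse split by share of counts. The own row held 95.04% of the counts for RPL32, 94.3% for EEF1A1, 92.6% for ENO1 and 73.2% for RPS6. Such a share sets a whole row beside another that meets the gene only over the overlap. Counts per kb of the own row were 465 for EEF1A1, 438 for ENO1, 68.5 for RPS6 and 3392 for RPL32. Counts of the other row per kb of the overlap, as if all lay in it, were 922, 1095, 241 and 2063 in that order. The place of the overlap differs among all these pairs. Places were counted along the joined exons of the gene's row from its 5′ end. The overlap ran from 4.55% to 7.43% of that length in MGP, from 0% to 3.03% in EEF1A1 and from 7.30% to 10.5% in ENO1. These are not positions along a single transcript: the MGP row joins 2639 bp, and MGP-201 has 694 bases. Overlaps that reached the middle or 3′ part included those of FTH1 (29.01% to 91.4%) and GAPDH (84.1% to 100%), but also those of RPL32 (91.4% to 100%) and RPS6 (89.6% to 100%). So MGP has an overlap near its 5′ end, like EEF1A1 and ENO1, and a share of counts nearer to those of FTH1 and GAPDH. On the per kb measure the other row was the higher in MGP, EEF1A1, ENO1, RPS6, FTH1 and GAPDH. In RPL32 the own row was the higher, at 3392 against 2063. The measure gave 13.6 for the own row and 6803 for the other row in MGP, 734 and 48818.5 in FTH1, and 197 and 129870 in GAPDH. It places all counts of the other row in the overlap, which was not tested. The overlap is 1.66% of the C12orf60 row, so 6803 is too high if counts lie elsewhere in that row.

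**Figure D4:**
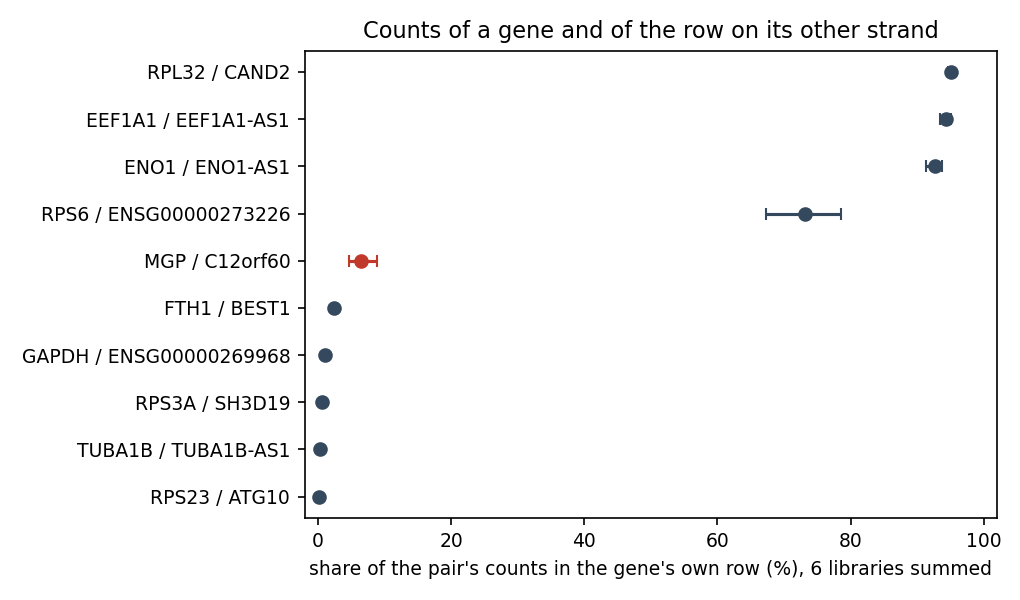
Share of the counts of each opposite-strand pair that lay in the gene's own row, in percent over 6 libraries, with exact 95% binomial intervals; each label gives the gene and then the row on its other strand. MGP (red, 6.51%) lies beside the pairs whose other-strand row held most counts.

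Among rows whose exons overlap 1 protein-coding gene on the other strand by 51 to 100 bp, as those of C12orf60 do, 314 of 755 were tested. Of these, 6.69% were called lower and 2.87% higher with the SOX9 sgRNA, close to the shares over all tested rows, and their median log2 fold change was -0.01. C12orf60 had the second lowest fold change of the 314, and by control CPM it ranked 37 among them, with a median of 40.9 CPM over all 314.

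The own rows of the genes beside MGP had few counts. Within 250 kb, 13 further rows lie wholly inside the window and 7 of them held any count. Only H2AJ, a histone H2A variant gene, was tested. It held 15, 19 and 22 counts in SOX9 sgRNA libraries 1 to 3, against 18, 33 and 31 in control libraries 1 to 3, and the groups overlap. Its log2 fold change was -0.72 (edgeR adjusted p = 0.17), so 0 neighbours were called by edgeR, with 1 (H2AJ) at an unadjusted p under 0.05, and 0 in any of the 11 alternatives, DESeq2 among them.

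WBP11, a splicing factor gene whose start lies beside that of C12orf60 in the other direction, held 13, 7 and 7 counts in SOX9 sgRNA libraries 1 to 3, against 11, 5 and 9 in control libraries 1 to 3. SMCO3, which sits within an intron of C12orf60, held 2, 4 and 3 counts with the SOX9 sgRNA and 4, 4 and 0 with the control sgRNA. ERP27, an endoplasmic reticulum protein gene 28.1 kb upstream of MGP, held 1, 0 and 0 counts with the SOX9 sgRNA and 2, 5 and 2 with the control sgRNA. ART4, also within the span of C12orf60, and ARHGDIB held 0 counts in all 6 libraries. None of these rows came near the control counts of C12orf60. No row has exons opposite those of H2AJ, WBP11, SMCO3, ERP27 or ARHGDIB, so fragments on their other strand are not seen here. Low counts in these own rows therefore need not be the levels of the genes.

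The rows with the pattern most like C12orf60 were found by Pearson correlation of log2 CPM over the 6 libraries, among 4336 further rows whose average log2 CPM was 5 or more. With 2 groups of 3 libraries, such a correlation is set mainly by how cleanly the groups separate, and 154 rows were above 0.95. The 6 closest were GPS2, ENSG00000269968, ANAPC11, LINC01152, ENSG00000268310 and ENSG00000269926, with correlations from 0.997 to 0.999. The first of these has an exon opposite EIF5A, a translation factor gene, and ENSG00000269968 lies opposite GAPDH. ENSG00000269926 lies opposite DDIT4, a stress-induced inhibitor of mTOR signalling.

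Among these 6, LINC01152 came nearest to C12orf60 in level and size of fall. This long noncoding RNA row (chromosome 17, 70026432 to 70034889, plus strand) held 8, 8 and 5 counts in SOX9 sgRNA libraries 1 to 3, against 121, 146 and 111 in control libraries 1 to 3. Its log2 fold change was -4.03, it has no exon opposite, and on GRCh37 it lies upstream of SOX9 on the same chromosome. The other 5 fell by 0.57 to 1.57 on the log2 scale at higher levels.

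Genes that work with or against matrix Gla protein were read against all tested rows, of which 6.02% were called lower and 2.99% higher. For all lists, an own row can hold a small part of a gene's counts, as for FTH1 and GAPDH, so its value need not be the level of that gene. The share of all tested rows at an unadjusted p under 0.05 was not computed. Counts at that level, for lists and for neighbours, therefore have no background to be read against. Calcification regulators other than MGP number 19, of which 6 had a tested own row. Of these, 1 was lower and 0 were higher, and 3 had an unadjusted p under 0.05. Their median log2 fold change was 0.13, against 0.01 over all tested rows. ALPL, which encodes the alkaline phosphatase that removes the mineralisation inhibitor pyrophosphate, was the one lower. It held 8, 3 and 11 counts in SOX9 sgRNA libraries 1 to 3, against 17, 17 and 25 in control libraries 1 to 3. The groups did not overlap, as in this direction in 12.8% of all tested rows. The fit gave -1.44 on the log2 scale (SE 0.41) with an edgeR adjusted p = 0.015. The call was lost without SOX9 sgRNA library 2 (-1.21, edgeR adjusted p = 0.090) or control library 3 (-1.21, edgeR adjusted p = 0.13).

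The other tested calcification genes were ANKH, a pyrophosphate exporter gene (0.34), the phosphate transporter genes SLC20A1 (-0.56) and SLC20A2 (-0.08), the sphingomyelinase gene SMPD3 (0.58) and BGLAP, which encodes the bone Gla protein osteocalcin (0.96), all values log2 fold changes with an edgeR adjusted p above the threshold. SMPD3 and BGLAP had an unadjusted p under 0.05 (edgeR adjusted p = 0.21 for each), and in both the SOX9 sgRNA libraries lay above the control libraries in CPM without overlap, as in 11.7% of all tested rows. BGLAP held 18, 16 and 15 counts in SOX9 sgRNA libraries 1 to 3, against 9, 5 and 5 in control libraries 1 to 3. SPP1, which encodes osteopontin, and ENPP1, which makes pyrophosphate, held 0 counts in all libraries, as did 8 of the 19 rows. On the other strand, 1 of 3 rows was tested, SMIM19 opposite SLC20A2, and it was not called (-0.37, edgeR adjusted p = 0.38). CLMAT3, opposite SPARC over 381 bp, was not tested. It held 2, 0 and 1 counts in SOX9 sgRNA libraries 1 to 3, against 4, 17 and 12 in control libraries 1 to 3.

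**Figure D5:**
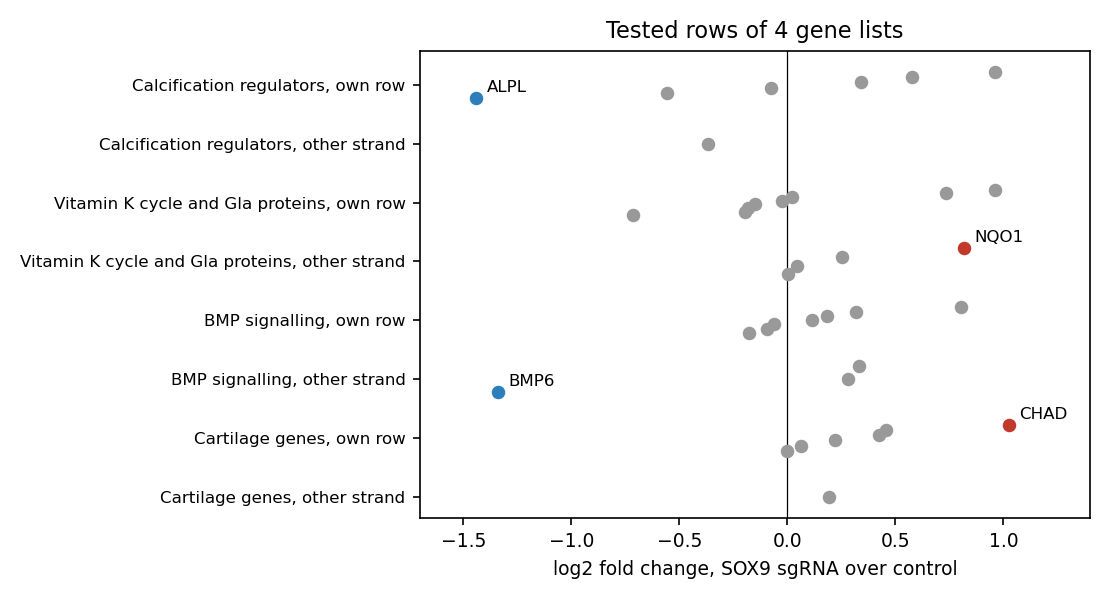
Log2 fold changes (SOX9 sgRNA over control) of the tested rows of 4 gene lists, for the gene's own row and for the row on its other strand; blue points were called lower and red higher. ALPL at -1.44 and the row opposite BMP6 at -1.34 are the lower calls, and CHAD at 1.03 and the row opposite NQO1 at 0.82 the higher ones.

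In the vitamin K cycle and Gla protein list, 8 of 21 own rows were tested and 0 were called by edgeR or DESeq2, with 3 (GGCX, NQO1 and BGLAP) at an unadjusted p under 0.05. The row of GGCX, the carboxylase that makes Gla residues, held 430, 412 and 609 counts in SOX9 sgRNA libraries 1 to 3, against 467, 505 and 436 in control libraries 1 to 3, a log2 difference of -0.20 (SE 0.09) with an edgeR adjusted p = 0.20. This row overlaps MAT2A on the other strand over 558 bp. The MAT2A row held 94 counts in all with the SOX9 sgRNA and 66 with the control sgRNA. Which gene's transcripts the GGCX row holds was not tested. VKORC1, which regenerates vitamin K, held 4 to 9 counts with the SOX9 sgRNA and 5 to 9 with the control sgRNA and was not tested. GAS6, a Gla protein ligand of the AXL receptor family, gave 0.02. Of 4 tested rows on the other strand of list genes, 1 was higher, against 3.87% of 2607 rows that lie opposite a protein-coding gene.

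That row, ENSG00000261602, lies opposite NQO1, a quinone reductase gene, over 575 bp. It held 88, 80 and 103 counts in SOX9 sgRNA libraries 1 to 3, against 43, 55 and 31 in control libraries 1 to 3. The groups did not overlap, as in this direction in 11.7% of all tested rows. The fit gave 0.82 on the log2 scale (SE 0.21) with an edgeR adjusted p = 0.0061, and the call was lost without control library 3 (0.67, edgeR adjusted p = 0.061).

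For BMP signalling, 7 of 26 own rows were tested and 0 were called by edgeR or DESeq2, with 1 at an unadjusted p under 0.05. The own rows of the BMP target genes ID1, ID2, ID3 and ID4, inhibitors of basic helix-loop-helix factors, gave log2 fold changes of 0.32, -0.06, 0.80 and 0.18. No row lies opposite ID1, ID3 or ID4, so fragments on their other strand are not seen here. The median of the 7 was 0.11. On the other strand, 1 of 3 tested rows was lower, against 9.32% of the 2607 such rows. It was TXNDC5, which overlaps the ligand gene BMP6 over 173 bp and encodes a protein disulfide isomerase of its own. It held 25, 21 and 52 counts in SOX9 sgRNA libraries 1 to 3, against 99, 66 and 51 in control libraries 1 to 3, or -1.34 on the log2 scale (SE 0.25) with an edgeR adjusted p = 5.57e-05. In CPM its groups did not overlap, at 36.01 ± 12.7 with the SOX9 sgRNA and 96.4 ± 31.4 with the control sgRNA (SD, n = 3 each). Groups were apart in this direction in 12.8% of all tested rows.

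Among 19 cartilage genes of the kind SOX9 drives in chondrocytes, 6 own rows were tested, with 0 lower and 1 higher, against 6.02% lower and 2.99% higher over all tested rows. Their median log2 fold change was 0.32, against 0.01 over all tested rows, and all 6 values were above 0, that of SOX6 at 0.00. Each of these 6 rows shares exon bases with an opposite-strand row. The opposite rows are TCFL5 for COL9A3, ENSG00000234188 for COL10A1, MATN1-AS1 for MATN1, C11orf58 for SOX6, ACSF2 for CHAD and ENSG00000272149 for CRTAP. Which gene's transcripts the 6 rows hold was not tested, so the values need not be levels of the cartilage genes. CHAD, which encodes the cartilage matrix protein chondroadherin and lies opposite ACSF2, held 22, 46 and 25 counts in SOX9 sgRNA libraries 1 to 3, against 12, 13 and 12 in control libraries 1 to 3. Its value of 1.03 on the log2 scale (SE 0.35), with an edgeR adjusted p = 0.049, was just past the threshold and leaned on SOX9 sgRNA library 2, without which it was 0.54 (edgeR adjusted p = 0.55). Leaving out control library 1, 2 or 3 also ended the call, at 1.00, 1.01 and 1.04, as did DESeq2 (adjusted p = 0.15). COL9A3 and COL10A1, cartilage collagen genes, gave 0.22 and 0.46, with adjusted p above the threshold. On the other strand, 1 of 6 rows was tested, ENSG00000272149 opposite CRTAP. It gave 0.19 and was not called (edgeR unadjusted p = 0.032, adjusted p = 0.18).

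Facts of the libraries bear on these values. Totals ran from 776125 to 1018854 counts with the SOX9 sgRNA and from 777960 to 881655 with the control sgRNA, while 20207 to 21082 genes were detected with the SOX9 sgRNA and 18326 to 18818 with the control sgRNA. SOX9 itself held 37, 39 and 60 counts with the SOX9 sgRNA and 38, 52 and 44 with the control sgRNA, a log2 fold change of -0.21 (edgeR adjusted p = 0.70). A guide need not lower the transcript of its target. Which strand's RNA the SOX9 row holds was also not tested, so these counts check no label. Own rows of 8 epithelial marker genes summed to 927 to 1129 CPM of all counts with the SOX9 sgRNA and 1049 to 1090 with the control sgRNA. The rows on the other strand of 3 of these genes (KRT7, KRT18 and CDH1) summed to 2669.5 to 2871 CPM with the SOX9 sgRNA and 3333.5 to 3413 with the control sgRNA, without overlap. KRT7-AS, opposite the keratin gene KRT7, held 758, 728 and 962 counts in SOX9 sgRNA libraries 1 to 3, against 1353, 1368 and 1254 in control libraries 1 to 3. The row opposite KRT18 is KRT8, itself a marker. The part of these marker rows in the results was not tested. Of other cell types in which MGP is known, the own rows of 4 of 6 fibroblast markers (COL3A1, DCN, LUM and PDGFRB) and all 5 endothelial markers with a row were at 3 counts or fewer over all 6 libraries. No row lies opposite any of these fibroblast and endothelial genes alone, and an own row can hold a small part of a gene's counts, as for FTH1 and GAPDH, so these low counts do not show that such cells were absent. Own rows of chondrocyte markers summed to 24.1 to 30.9 CPM with the SOX9 sgRNA and 11.6 to 34.5 CPM with the control sgRNA, and own rows of 4 of 5 leukocyte markers were at 3 counts or fewer. In bulk libraries like these, fewer cells with a transcript and less transcript per cell cannot be told apart.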

How the data were processed

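The deposited tables hold raw counts of fragments per gene, 1 table per library, for 6 libraries. Per the submitters' processing notes, STAR 2.7.10a and Subread 1.6.2 were used on GRCh37, and per the file headers featureCounts 1.6.2 counted exons of Ensembl release 75 with strand setting 1, counting a fragment for each gene it overlaps. Symbols matched 51452 of 57209 identifiers and GENCODE 29 biotypes 51789.

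edgeR 4.0.16 in R 4.3.3 tested SOX9 sgRNA against control sgRNA with filterByExpr, TMM factors, a prior count of 2 and the robust quasi-likelihood fit, with Benjamini-Hochberg adjustment over all tested rows. CPM is relative to TMM-scaled totals of tested rows, except for markers. Exon overlaps used bedtools 2.31.1. Ratio intervals are exact (Clopper-Pearson) and cover counting error only. Transcript structures are those of GENCODE 29. The sequence of the overlap is not reported here.

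Members and lists were chosen with earlier results of these data known. Named were the members, SOX9, rows within 250 kb, up to 4 called members of each list, the 6 rows most like C12orf60 and reference pairs; others were chosen after their values were seen. Alternatives were library totals, DESeq2 1.42.0, 2 filters, a replicate block, a prior count of 0.5 and leaving out each library. The procedure was tested on simulated counts.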

Additional observations from a re-analysis of the deposited data

How the results depend on the processing

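The C12orf60 log2 fold change lay between -3.55 and -3.20 over 12 alternatives, and between -3.48 and -3.20 when a library was left out. The MGP value was negative in all 12, at -2.27 with DESeq2 and -2.04 with a prior count of 0.5, and between -1.75 and -1.37 when a library was left out. DESeq2 called 473 rows where edgeR called 717, and 130 higher. Library totals in place of TMM factors gave 249 lower and 625 higher calls, against 479 and 238, and shifted all rows by a median of 0.17 (log2). With no filter 151 were higher. Leaving out a library gave 525 to 637 calls.

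Calls on the lists rested on few counts. Calcification regulators had 0 calls with the stricter filter, under which ALPL was not tested, and 0 to 1 when a library was left out. Their rows on the other strand had 1 call with no filter, the row opposite SPARC, and 0 to 1 when a library was left out. The vitamin K rows on the other strand had 0 to 1. With library totals, BMP signalling had 3 calls on the other strand and cartilage genes 1. Own rows of cartilage genes had 0 calls with DESeq2, 0 with no filter and 0 to 1 when a library was left out. Where not stated, the cause was not tested.

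With the replicate number as a block, 574 rows were called, cartilage genes had 0 calls and C12orf60 gave -3.38. Deviations of same-numbered libraries correlated at 0.01, 0.02 and -0.03, and not every library correlated best with its own number. In the labels such libraries are linked by their number only, and correlations this small cannot exclude a shared preparation.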
